A study of Mus musculus with 15 samples.

Results

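The genes followed here are the cardiac natriuretic peptide genes Nppa and Nppb and 5 genes that mark atrial against ventricular muscle in the adult mouse heart, Myl4, Myl7, Sln, Bmp10 and Dkk3. They were found by symbol in the array's probe annotation, each by its only probe set that carried a single symbol, and they are 7 of 19937 genes found in that way. The 15 microarrays of the series hold RNA of muscle cells freed from the left ventricle, the main pumping chamber, of male C57Bl/6NT mice aged 8 to 9 months. Mice of the proton groups were irradiated as a whole with 90 cGy of protons at 1 GeV, and their cells were taken 1 (n = 2 arrays), 3 (n = 3), 5 (n = 3), 12 (n = 2) or 26 days later (n = 2), by the sample titles. The sham group holds 3 arrays (2 from day 1 and 1 from day 3), pooled here as the control of every day. Days 5, 12 and 26 had no sham of their own. At these days protons cannot be told apart from time or from other differences between days. All groups share the strain, the sex, the age range and the cell isolation, in which the heart was digested with collagenase through the aorta and calcium was brought back in steps. The labels state that inflammatory and endothelial cells could remain in the suspension, and they leave unsaid if each array stands for a mouse of its own, so p-values measure only the spread between these samples, which may be technical. Proton day 5 replicates 1 and 2 were nearly 1 array by value, with an SD of their log2 differences of 0.0768 over the genes tested against 0.222 to 0.527 for the other 104 pairs of arrays, and they were averaged, which left 14 samples.

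Nppa and Nppb encode the precursors of atrial and brain natriuretic peptide, hormones that heart muscle releases when it is stretched and that bind the receptor Npr1, raise cyclic GMP, lower blood pressure and promote sodium loss. In the adult mouse Nppa is made mainly in the atria and returns in the ventricle under pressure load, whereas Nppb is made in ventricular muscle as well. Myl4 and Myl7 encode the essential and the regulatory myosin light chain of atrial muscle, Sln encodes sarcolipin, a small inhibitor of the calcium pump of the sarcoplasmic reticulum that in mouse is found in atria, Bmp10 encodes a secreted ligand made in adult atrial muscle, and Dkk3 encodes a secreted glycoprotein of the Dickkopf family.

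Nppa and Nppb are neighbours on chromosome 4 of GRCm38.p6. Nppb spans 147985786 to 147987205 and Nppa spans 148000722 to 148002074, with 13516 bases between them. Myl7 lies on chromosome 11 at 5896637 to 5898782, Myl4 on chromosome 11 at 104546017 to 104587215, Bmp10 on chromosome 6 at 87428994 to 87434512, Sln on chromosome 9 at 53850251 to 53853849 and Dkk3 on chromosome 7 at 112116019 to 112159482.

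Promoter windows of 250 bases before the transcription start were at hand for 5 of the 7 genes in the RefSeq table (GRCm38.p6). They were searched on both strands for GATAA (bound by GATA factors), CATTCC (the M-CAT element of TEAD factors), TCACACC (T-box), TNAAGTG (NKX2-5), TATAAA (the TATA box) and the CArG box of serum response factor. The windows of Nppa and Nppb are shown because the signals of these neighbours behaved differently, and those of Myl7 and Bmp10 because their signals varied with that of Nppa. The signal of Myl4 also varied with that of Nppa (r = 0.71), and its window is described below but not printed. Capitals mark the matches, and a match on the other strand appears as its reverse complement. The positions are chr4:148000472-148000721 on the plus strand for Nppa, chr4:147985650-147985899 on the plus strand for Nppb, chr11:5898783-5899032 on the minus strand for Myl7 and chr6:87428744-87428993 on the plus strand for Bmp10. For Nppb, the start that the table uses lies inside the RefSeq gene span.
Nppa: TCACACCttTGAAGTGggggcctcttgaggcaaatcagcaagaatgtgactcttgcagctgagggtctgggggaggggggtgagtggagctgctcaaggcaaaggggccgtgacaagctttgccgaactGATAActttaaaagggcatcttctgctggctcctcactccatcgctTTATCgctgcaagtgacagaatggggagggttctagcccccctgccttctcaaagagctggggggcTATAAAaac
Nppb: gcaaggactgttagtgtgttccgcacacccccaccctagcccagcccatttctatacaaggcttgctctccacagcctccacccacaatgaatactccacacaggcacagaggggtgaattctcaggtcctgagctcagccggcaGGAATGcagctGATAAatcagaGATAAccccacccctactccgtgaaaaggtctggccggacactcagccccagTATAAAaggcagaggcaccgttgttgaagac
Myl7: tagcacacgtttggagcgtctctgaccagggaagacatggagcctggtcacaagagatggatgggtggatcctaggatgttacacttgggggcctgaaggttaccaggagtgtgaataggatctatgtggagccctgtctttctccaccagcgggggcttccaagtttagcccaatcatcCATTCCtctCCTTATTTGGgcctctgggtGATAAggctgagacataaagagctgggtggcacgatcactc
Bmp10: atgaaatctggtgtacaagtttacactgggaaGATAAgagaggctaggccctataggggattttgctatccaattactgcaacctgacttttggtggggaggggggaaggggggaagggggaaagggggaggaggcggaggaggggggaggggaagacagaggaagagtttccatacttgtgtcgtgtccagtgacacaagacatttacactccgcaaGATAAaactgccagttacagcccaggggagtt
GATAA was matched 2 times in the windows of Nppa, Nppb and Bmp10 and 1 time in that of Myl7, and it occurs in 22.6% of the 32851 promoter windows of the table. The Nppa window alone among the 4 held the T-box letters, 250 to 244 bases before the start (3.33% of all windows), and the NKX2-5 letters, 241 to 235 bases before it (10.1% of all windows). The M-CAT letters were found in the windows of Nppb, 105 to 100 bases before the start, and of Myl7, 70 to 65 bases before it (12.6% of all windows). A CArG box was found in the window of Myl7, 61 to 52 bases before the start (1.47% of all windows). TATAAA was found in those of Nppa, 9 to 4 bases before the start, and of Nppb, 31 to 26 bases before it (12.4% of all windows). None of the 6 motifs was matched in the window of Myl4, but that window lies inside the RefSeq gene span of Myl4, downstream of its first base, so the region before the first base was not searched. These matches describe letters and say nothing of binding.

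Of the 7 genes, 6 passed the filter on low signals, a mean above the median of all probe sets (5.00 on the log2 scale), which left 12102 genes in the test. Sln, with a mean of 4.79, did not, and its differences were taken from the same fit without the filter. Array medians lay between 4.90 and 5.16. Of genes taken here as ventricular markers, Myl2, the ventricular regulatory light chain, lay between 11.91 and 12.05 in the 14 samples, and Pln, the calcium pump inhibitor phospholamban, between 12.32 and 12.39. Both lie near the highest value in the files (12.9). Other ventricular markers varied more, such as Myh7 from 6.43 to 7.50 and Irx4 from 7.39 to 8.06. Precision is limited by the few arrays per group, and levels of different genes cannot be set against each other because each probe set has its own scale.

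Nppa had log2 signals of 10.21 and 9.85 at day 1, 10.63, 10.47 and 11.30 at day 3, 10.08 and 10.88 at day 5, 9.22 and 10.60 at day 12 and 11.20 and 10.15 at day 26 after protons, against 10.20, 10.31 and 10.41 in sham cells. The sham samples lay within 0.21 log2 units of each other, whereas the proton samples reached further in both directions: 6 of 11 lay above every sham sample and 4 lay below every one. Day 3 was the time at which every proton sample lay above the sham samples, with a difference of 0.49 ± 0.36 (SE) on the log2 scale and an adjusted p of 0.704 in the limma fit. Without replicate 3 of day 3 this difference was 0.25. The group means ran from 10.80 ± 0.44 at day 3 (SD, n = 3) through 10.68 ± 0.74 at day 26 and 10.48 ± 0.57 at day 5 to 10.03 ± 0.25 at day 1 and 9.91 ± 0.97 at day 12 (n = 2 each). Sham, at 10.31 ± 0.11 (n = 3), stood between days 5 and 1. At day 26 the difference was 0.37, with a 95% interval from -0.50 to 1.24. Without replicate 1 of day 26 it was -0.15, and without replicate 2 it was 0.89.

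Nppb, the other natriuretic peptide gene, stayed in a far narrower range. Its log2 signals were 11.47 and 11.60 at day 1, 11.59, 11.23 and 11.11 at day 3, 11.29 and 11.27 at day 5, 11.41 and 11.25 at day 12 and 11.67 and 11.58 at day 26 after protons, against 11.47, 11.48 and 11.21 in sham cells. The whole range over 14 samples was 1.47-fold. Both day 26 samples lay above every sham sample, by 0.24 ± 0.12 on the log2 scale (95% interval from -0.03 to 0.50, adjusted p = 0.403). Without the sham day 3 sample it was 0.15. At days 3, 5 and 12 the difference was between -0.11 and -0.06, and at day 1 it was 0.15.

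Myl7, the atrial regulatory light chain, had log2 signals of 6.98 and 6.21 at day 1, 6.44, 7.77 and 8.23 at day 3, 7.74 and 8.54 at day 5, 6.22 and 7.59 at day 12 and 9.64 and 8.03 at day 26 after protons, against 7.20, 5.72 and 6.72 in sham cells. All samples of days 5 and 26 lay above every sham sample, those of the other days overlapped sham, and none of the 11 proton samples lay below every sham sample. Day 26 averaged 8.84 ± 1.14 (SD, n = 2) against 6.54 ± 0.75 in sham cells (n = 3), a difference of 2.29 ± 0.63 on the log2 scale or 4.90-fold. It had the lowest p of the 7 genes in any day, 0.0035 unadjusted, and did not pass after adjustment over all genes (adjusted p = 0.170 in limma). Its 95% interval ran from 0.91 to 3.67. Without replicate 1 of day 26 the difference was 1.49, and without replicate 2 it was 3.10.

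Myl4, the atrial essential light chain, varied over a 20.2-fold range. Its log2 signals were 8.53 and 7.33 at day 1, 8.41, 9.44 and 10.19 at day 3, 9.42 and 10.15 at day 5, 7.46 and 9.14 at day 12 and 10.96 and 9.24 at day 26 after protons, against 9.17, 6.63 and 8.50 in sham cells. The 3 sham samples alone spanned 5.84-fold, and one of them, replicate 1 of day 1, lay close to the lower sample of days 5 and 26. Day 26 averaged 10.10 ± 1.22 (SD, n = 2) against 8.10 ± 1.32 in sham cells (n = 3), a 3.99-fold difference with an adjusted p of 0.286. At day 5 the log2 difference was 1.68 ± 0.79 (SE, adjusted p = 0.567). Without replicate 2 of sham day 1, the lowest sample, the log2 differences were 1.26 at day 26 and 0.94 at day 5, and without replicate 1 of day 26 the day 26 difference was 1.14.

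Sln, the calcium pump inhibitor, followed the light chains sample by sample. Its log2 signals were 4.63 and 3.28 at day 1, 3.84, 5.27 and 5.95 at day 3, 5.01 and 6.23 at day 5, 3.46 and 4.76 at day 12 and 7.26 and 5.34 at day 26 after protons, against 4.76, 2.78 and 4.33 in sham cells. Most of these values lie near or below the filter on low signals, and the sample order was nearly that of Myl7. Its day 26 difference was 2.34 ± 0.76 (5.07-fold, adjusted p = 0.303 without the filter). Without replicate 1 of day 26 it was 1.38, and without replicate 2 it was 3.30. The day 5 difference of 1.66 was 1.05 without replicate 3 of day 5 and 1.07 without replicate 2 of sham day 1.

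Bmp10, the atrial ligand, had log2 signals of 5.57 and 4.98 at day 1, 5.82, 5.35 and 6.79 at day 3, 5.84 and 6.09 at day 5, 4.69 and 5.39 at day 12 and 6.95 and 5.50 at day 26 after protons, against 5.10, 5.30 and 5.56 in sham cells. Both day 5 samples lay above every sham sample, and at day 26 replicate 2 fell among the sham samples while replicate 1 was the highest of all. The difference at day 26 was 0.91 ± 0.44 (adjusted p = 0.377), and without that replicate 1 it was 0.18, or 1.63 without replicate 2. At day 3 it was 0.67 ± 0.40 (adjusted p = 0.638), and without replicate 3 of day 3 it was 0.27.

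Dkk3, the Dickkopf family gene, moved over a 2.17-fold range. Its log2 signals were 5.15 and 5.23 at day 1, 5.09, 5.28 and 5.76 at day 3, 5.47 and 5.74 at day 5, 4.97 and 5.60 at day 12 and 6.01 and 5.38 at day 26 after protons, against 5.22, 4.99 and 4.89 in sham cells. Of the 11 proton samples, 8 lay above every sham sample, among them both samples of days 5 and 26. The difference at day 26 was 0.66 ± 0.25 (adjusted p = 0.274) and at day 5 it was 0.57 ± 0.25 (adjusted p = 0.546). Without replicate 1 of day 26 the day 26 difference was 0.35.

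**Figure D1:**
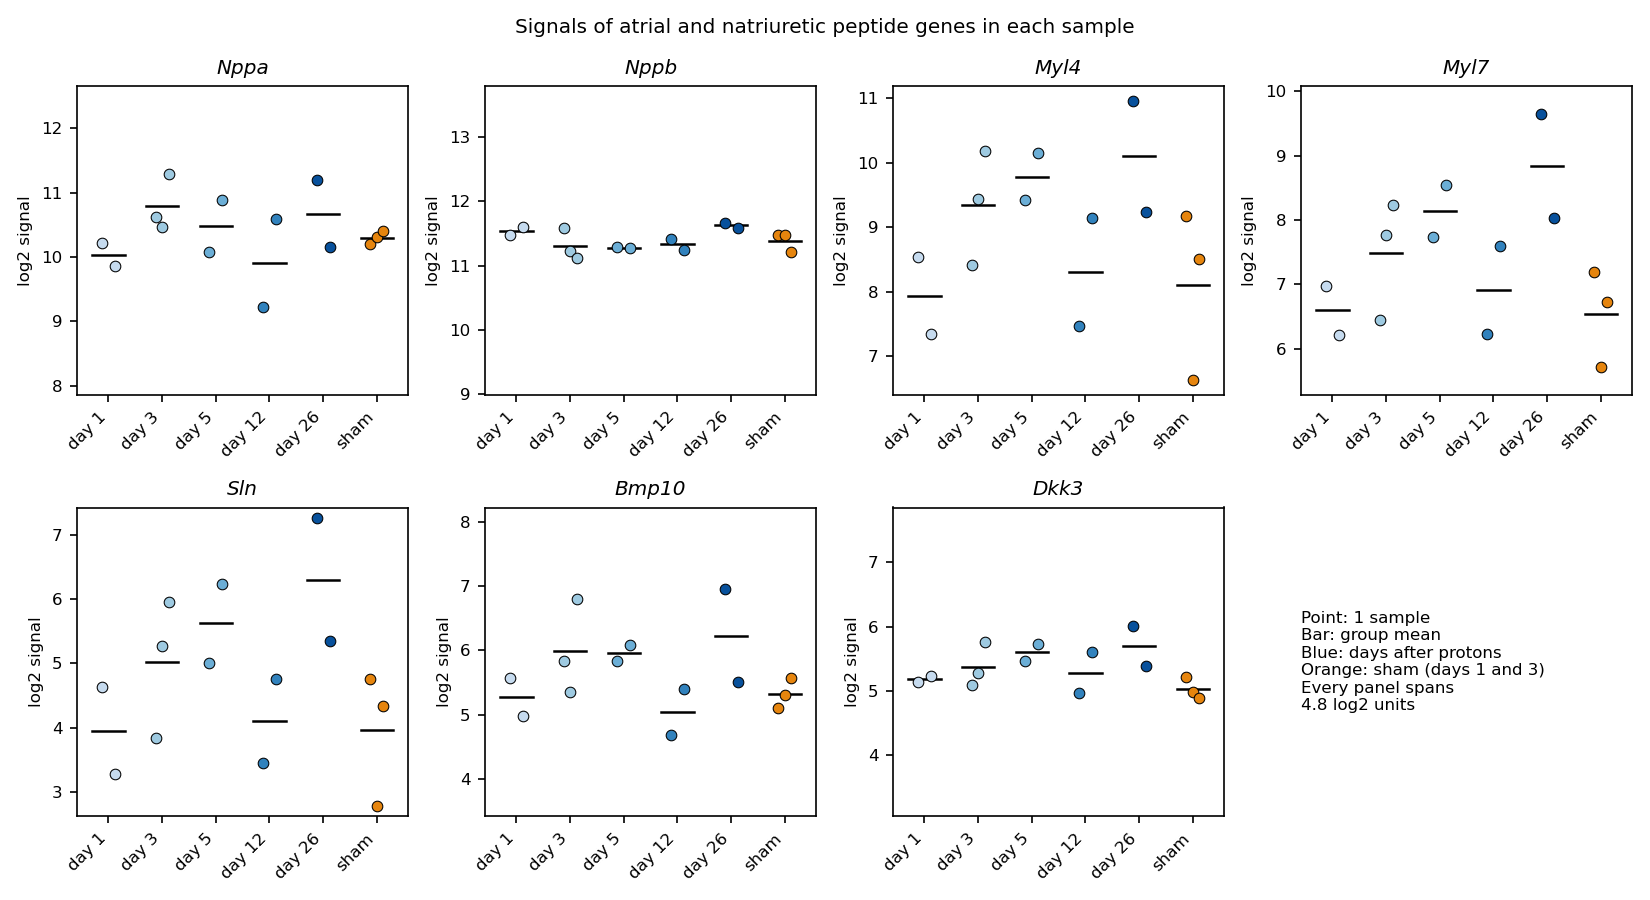
Log2 signals of the 7 genes in each of the 14 samples (vertical axes, all spanning the same number of log2 units), by days after protons (blue) and sham (orange); points are samples and bars are group means. Nppb keeps within 11.11 to 11.67, whereas Myl4, Myl7 and Sln spread widely within groups, the 3 sham samples included.

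None of the 7 genes passed an adjusted p of 0.05 in any comparison. The adjustment ran over 12102 genes, and for Sln over 19937 genes without the filter. Counts of the 7 genes here and below include Sln, while shares of all genes are over the 12102. The comparisons share the same sham samples, so they are not independent. Nor are the genes, since all but Nppb varied together over the samples, so counts of them are not counts of separate observations. The shares of all genes that passed were 0%, 0.00826%, 0.0496%, 0% and 0.0413% for days 1, 3, 5, 12 and 26. At an unadjusted p under 0.05, 0 of the 7 genes passed at days 1, 3 and 12, for which the shares of all genes were 5.5%, 8.86% and 8.01%. At day 5 the unadjusted count was 3 of 7 (Myl7, Sln and Dkk3), against 8.99% of all genes, and at day 26 it was 4 of 7 (Myl4, Myl7, Sln and Dkk3), against 14.3% of all genes. At day 26 all 7 differences were above 0, as were 58.8% of all genes, and their median was 0.91 against 0.05 over all genes. The medians of the 7 genes were -0.01, 0.67, 0.64 and 0.15 at days 1, 3, 5 and 12, with 3, 6, 6 and 4 of 7 above 0, against 48.3%, 51%, 51.2% and 51.9% of all genes.

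Counts of genes whose samples all lay above sham give a like picture. Day 5 had 5 of 7 (against 16.8% of all genes), day 26 also had 5 (24.7%), day 3 had 1 (8%), and neither day 1 (14.2%) nor day 12 (9.92%) had any, and none of the 7 lay wholly below sham on any day, against 14.9%, 4.39%, 15.8%, 11.2% and 14.1% of all genes for days 1, 3, 5, 12 and 26. Bmp10 and Nppa were the genes that overlapped sham at day 26, and Nppa and Nppb those that overlapped it at day 5. The F-test over all 5 days against sham gave adjusted p-values of 0.466 for Myl7, 0.561 for Myl4, 0.593 for Nppb, 0.597 for Bmp10, 0.636 for Dkk3, 0.662 for Sln and 0.700 for Nppa, when 0.0248% of all genes passed. The F-test for differences among the 5 proton days gave adjusted p-values between 0.584 (Myl7) and 0.840 (Dkk3), when 0% of all genes passed.

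**Figure D2:**
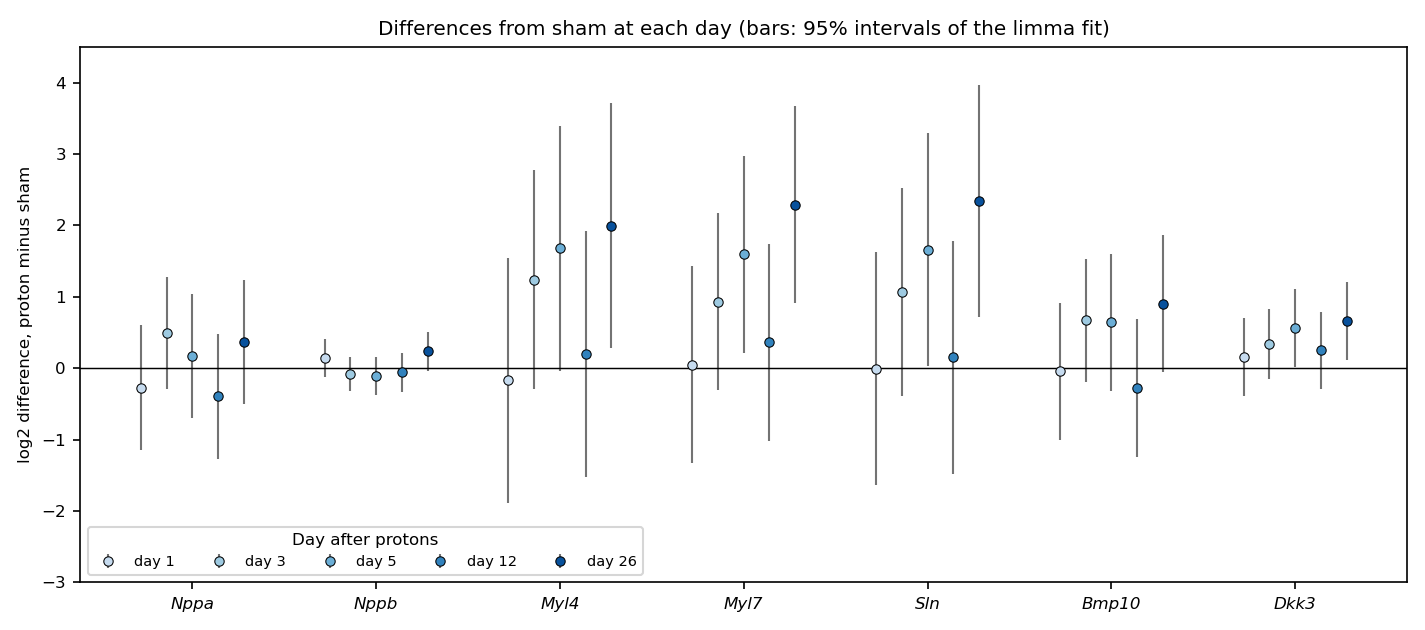
Differences of each proton day from sham on the log2 scale (vertical axis) for the 7 genes (horizontal axis), with days in order within each gene; points are fitted differences and bars their 95% intervals from limma. Myl4, Myl7 and Sln have the widest intervals, and at day 26 the difference is 2.29 for Myl7 and 0.24 for Nppb.

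The order of the group means was the same for Myl4 and Sln: day 26, day 5, day 3, day 12, sham and day 1. For Myl7 and Dkk3 days 26, 5, 3 and 12 kept those places and day 1 came before sham. Bmp10 ran from day 26 through days 3 and 5, sham and day 1 to day 12. Nppb ran from day 26 through day 1, sham and days 12 and 3 to day 5. Neighbouring group means differed by less than the SD within groups for 6 of the 7 genes. The exception was Bmp10, whose day 5 and sham means were 0.64 apart against an SD within groups of 0.579.

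Spread between samples set 6 of the 7 genes apart from most of the array. The SD over the 14 samples was 1.22 for Sln, 1.19 for Myl4 and 1.07 for Myl7, larger than that of 99.9%, 99.9% and 99.8% of the genes tested. It was 0.634 for Bmp10, 0.534 for Nppa and 0.334 for Dkk3, above 98.6%, 97.3% and 90.0% of genes. Nppb, at 0.175, lay near the median gene (0.178), above 48.7% of genes. Much of this spread was between samples of one group: the SD within groups was 1.06 for Myl4, 1.05 for Sln, 0.847 for Myl7, 0.579 for Bmp10, 0.534 for Nppa and 0.301 for Dkk3, against a median of 0.165 over the genes tested and 0.157 for Nppb.

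The 6 genes other than Nppb varied together over the samples. All 15 pairs among them had a Pearson r that passed in a 2-sided permutation test with 100000 resamples and Benjamini-Hochberg adjustment over the 21 pairs of the 7 genes (adjusted p at most 0.0127), with r from 0.67 to 0.99 over 14 samples. By Spearman's rho 11 of the 15 passed (rho from 0.52 to 0.996), and the 4 that did not were Nppa with Myl4, Myl7, Sln and Dkk3, with adjusted p-values from 0.0609 to 0.0860. Without the 2 samples farthest from the median of the first gene of a pair, r ran from 0.49 (Bmp10 and Dkk3) to 0.98. Deviations from the group means, which hold no difference between proton days or between proton and sham, gave r from 0.60 to 0.99. The sham group mixes days 1 and 3, so its deviations can hold a difference between these days. In groups of 2 samples the deviations mirror each other, so these values are not independent. The 11 proton samples alone gave r from 0.74 to 0.99. The genes were put together with results of these data known, so these p-values are not independent evidence that they vary together.

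Myl7 and Sln were the closest pair, with r = 0.99 (rho = 0.996), followed by Myl4 and Sln with 0.98 and Myl4 and Myl7 with 0.96. Per log2 unit of Myl7, the fitted slope was 1.12 log2 units for Sln and 1.07 for Myl4, against 0.45 for Bmp10, 0.33 for Nppa and 0.28 for Dkk3. Dkk3 had r = 0.90 with Myl7. Nppa was closest to Bmp10, with r = 0.88 (rho = 0.71, adjusted p = 0.0149), and had r = 0.67 with Myl7 (rho = 0.56, adjusted p = 0.0609). Without replicate 1 of day 26 the r of Nppa and Myl7 was 0.565, with an adjusted p of 0.0521.

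Nppb followed none of the other 6. Its r with them ran from -0.24 (Myl4) to -0.09 (Dkk3), with adjusted p-values from 0.537 to 0.756. With Nppa, its neighbour on the chromosome, r was -0.23 (p = 0.434, rho = -0.26). Among 11 proton samples the 6 values lay between -0.28 and -0.09, and for deviations from the group means between -0.58 and -0.35. Without replicate 3 of day 3, in which Nppa was highest and Nppb lowest of all samples, r of Nppb was 0.00 with Nppa, 0.18 with Bmp10 and 0.10 with Dkk3. Leaving out a different array could also make these r more negative, and the ranges are given in the last section.

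**Figure D3:**
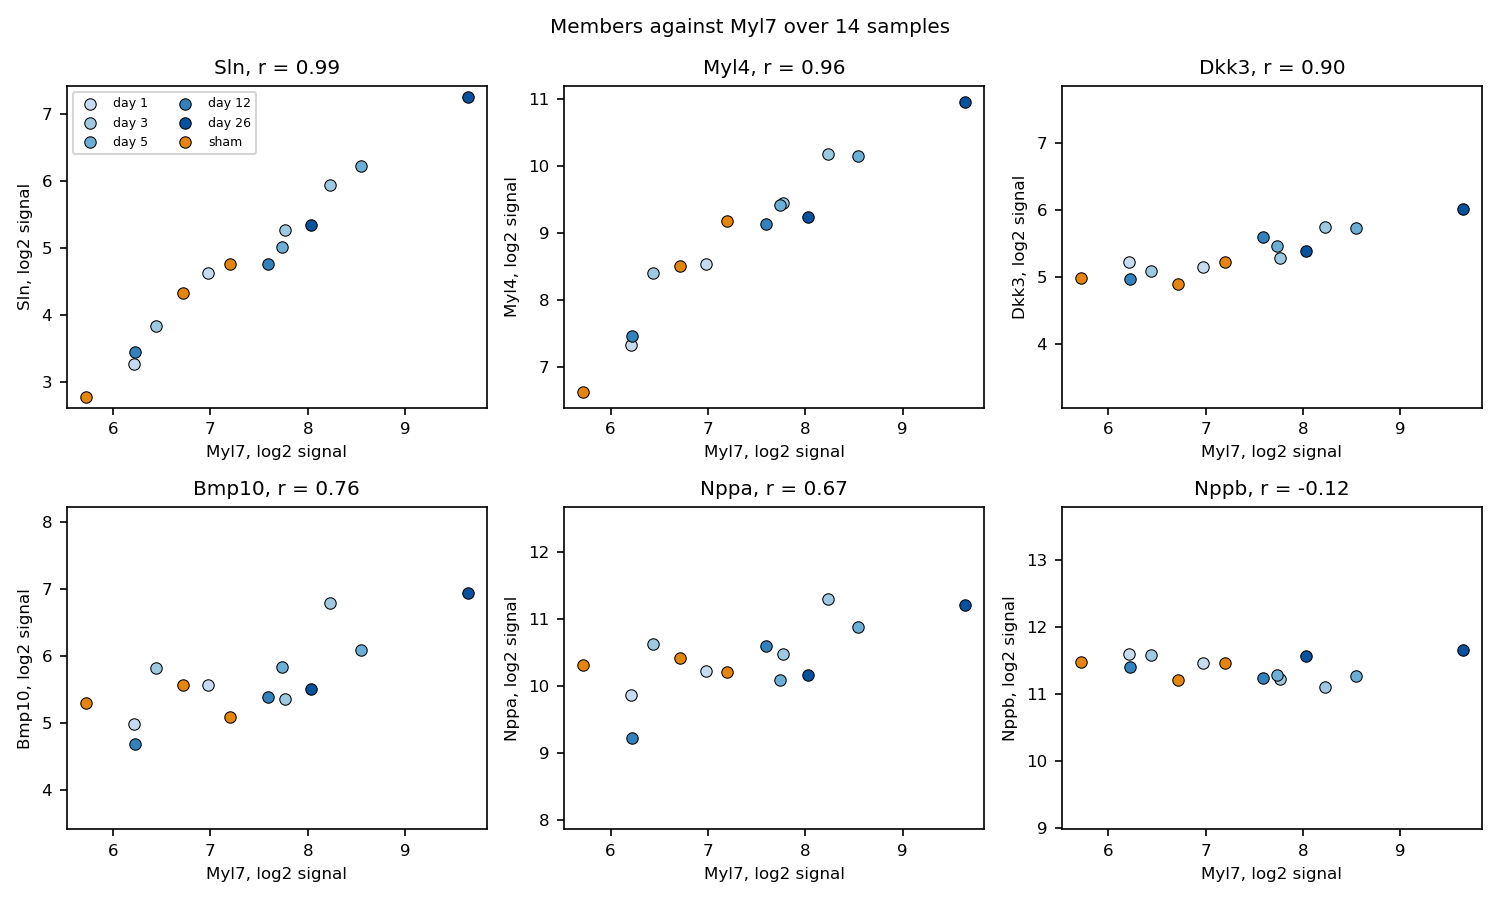
Log2 signal of 6 genes (vertical axes) against that of Myl7 (horizontal axes) in 14 samples, coloured by day after protons (blue) or sham (orange). Sln and Myl4 lie close to a line with r = 0.99 and 0.96, Nppa scatters more widely with r = 0.67, and Nppb is flat with r = -0.12.

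In the groups of 2 samples, most of these genes differed between the samples in the same direction. At day 26, replicate 1 lay above replicate 2 by 3.79-fold for Sln, 3.30-fold for Myl4, 3.06-fold for Myl7, 2.72-fold for Bmp10, 2.06-fold for Nppa and 1.54-fold for Dkk3, and by 1.06-fold for Nppb. At day 12, replicate 2 lay above replicate 1 by 3.20-fold for Myl4 and by 2.59-fold for both Myl7 and Nppa, and Nppb was 0.892 times its level in replicate 1. At day 5, replicate 3 lay above the mean of replicates 1 and 2 by 2.32-fold for Sln and 1.75-fold for Nppa and Myl7. At day 1, replicate 1 lay above replicate 2 for Myl4 (2.29-fold), Sln, Myl7, Bmp10 and Nppa (1.28-fold) and below it for Dkk3 and Nppb. Nppa, Myl4, Sln and Bmp10 thus had the same order of samples as Myl7 at all 4 days with 2 samples, which held for 6.07% of the genes tested, Myl7 included. In the groups of 3 samples, Nppa and Bmp10 did not keep the order of Myl7. At day 3, replicate 1 had the lowest Myl7 signal, 6.44 against 7.77 in replicate 2, and yet higher signals of Nppa (10.63 against 10.47) and Bmp10 (5.82 against 5.35), while replicate 3 was highest for all 3 genes. In sham cells, replicate 1 of day 1 had the highest Myl7 signal and the lowest of Nppa and Bmp10.

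Ranks were taken among genes past the filter on low signals, which leave out Sln. Bmp10 was the gene with the highest r with Nppa of 12101 genes, and Nppa the gene with the highest r with Bmp10. Myl4 and Dkk3 had the 2 highest values with Myl7 among these genes, below the 0.99 of the unranked Sln. Bmp10 came 20th, Nppa 125th and Nppb 8344th. An r of at least 0.8 with Myl7 was reached by 9 genes, 0.0744% of those tested, and the median over all genes was 0.05. With Nppb, 7 genes reached it.

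Genes outside the group with the most similar patterns over the 14 samples were named by the 3 highest Pearson r for each gene, with no test. For Myl7 they were Aldh1a3, a retinoic acid synthesis enzyme (0.88), Stx5a, a vesicle fusion protein of the Golgi (0.86), and Mybphl, a myosin-binding protein of atrial muscle (0.86). For Sln they were Stx5a (0.88), Aldh1a3 (0.87) and Mybphl (0.86), and for Myl4 they were Stx5a (0.91), Aldh1a3 (0.84) and Gadd45b, a stress response gene (0.82). For Bmp10 they were Mybphl (0.84), Polg2, a subunit of the mitochondrial DNA polymerase (0.82), and the transcription factor Gata2 (0.82). Nppa had Csnk2a2, a catalytic subunit of casein kinase 2 (0.85), the transcription factor Bach1 (0.84) and Adamtsl2, a secreted matrix protein (0.83). Dkk3 had Tmem164 (0.90), the protein disulphide isomerase Pdia6 (0.89) and Mier1 (0.87). Nppb shared none of these and had Mfsd12 (0.89), Lrrc56 (0.85) and Srf, the serum response factor (0.83).

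Atrial tissue and a load response of ventricular muscle were followed with lists of other genes. Of 15 atrial markers outside the group, 14 were on the array and 13 were tested, and on no day was any of them called at an adjusted p of 0.05. Mybphl, the atrial marker with the largest difference, had log2 signals of 4.81 and 4.24 at day 1, 4.98, 4.79 and 5.43 at day 3, 5.10 and 5.74 at day 5, 4.80 and 4.81 at day 12 and 6.52 and 5.10 at day 26, against 4.82, 4.68 and 4.64 in sham cells. Its difference at day 26 was 1.09 ± 0.36 (adjusted p = 0.224). Angpt1, an angiopoietin, had the other large difference, of -0.93 ± 0.14 at day 26 (adjusted p = 0.0528), and its r with Myl7 was -0.30. The atrial list as a whole had a median difference of -0.08 at day 26, against 0.05 over all genes, and of -0.08, 0.04, 0.08 and -0.02 at days 1, 3, 5 and 12. Without replicate 2 of day 26 the day 26 median was 0.10, without replicate 2 of sham day 1 it was -0.02, without replicate 1 of sham day 1 it was -0.12, and with equal array medians it was -0.18. Its median r with Myl7 was -0.08, with 6 of 13 above 0. Pam, the peptide-amidating enzyme that is abundant in atrial granules, had r = -0.15 with Myl7 and 0.50 with Nppa. The summed linear signal of the atrial list lay between 4866 and 4999 at day 1, 4621 and 5282 at day 3 and 4703 and 4949 at day 5. It lay between 4340 and 4922 at day 12 and 4104 and 4630 at day 26, against 4326 to 4930 in sham cells. Every day overlapped sham. Such a sum is weighted to bright genes such as Pam, at log2 signals of 10.4 to 10.97. It can hardly show a change in a weak one such as Mybphl, at 4.24 to 6.52.

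The mean of 7 of these atrial markers was also taken as a covariate: Mybphl, Stard10, Kcnj3, Kcnj5, Pam, Chrm2 and Kcna5. Angpt1 was not among them, and the whole list was not run as a covariate. With this covariate, the day 26 difference was 1.86 for Myl7, 1.85 for Sln, 1.67 for Myl4, 0.41 for Dkk3, 0.37 for Bmp10, 0.24 for Nppb and -0.13 for Nppa. Several of these markers are also made by ventricular muscle, so this covariate does not isolate atrial cells. In these bulk samples more cells of a type and more RNA per cell cannot be told apart.

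Of 24 load response genes, 22 were tested and 0 passed on any day. Their median difference was 0.00, 0.04, -0.13, -0.07 and 0.22 at days 1, 3, 5, 12 and 26. Without replicate 1 of day 26 the day 26 median was -0.01, without replicate 2 of sham day 1 it was 0.07, and with other cells' markers as a covariate it was 0.06. In the other direction, it was 0.27 without replicate 2 of day 26 and 0.30 without the sham day 3 sample. At day 26, 6 of 22 had an unadjusted p under 0.05, against 14.3% of all genes. Among these 6, Ccn2, a matrix-associated growth factor, was 0.91 ± 0.22 above sham (adjusted p = 0.129) and Rcan1, a calcineurin target, 0.40 ± 0.09 (adjusted p = 0.110), while Csrp3 and Xirp2, both sarcomere-associated proteins, differed by -0.18 and -0.31. Acta1, the skeletal actin that returns in loaded ventricles, had differences of -0.45, -0.35, -0.58, -0.39 and -0.30 over the 5 days (adjusted p = 0.528 at day 5 and 0.574 at day 26). Ankrd1, a stretch-responsive nuclear and sarcomeric protein, had differences from -0.21 to -0.05, and Myh7, the slow myosin heavy chain, had 0.41 ± 0.24 at day 26 (adjusted p = 0.441). The median r of the list was 0.23 with Myl7, 0.31 with Nppa and 0.06 with Nppb, against 0.05, 0.06 and 0.04 over all genes.

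Ventricular markers gave the comparison from the other side. All 12, among them Myh7, which is also in the load response list, were tested. Of these, 0 passed, and their median difference was between -0.06 and 0.01 over the 5 days. Irx4, a transcription factor of ventricular muscle, had the largest, -0.46 ± 0.16 at day 26 (adjusted p = 0.254), and its r with Myl7 was -0.75. Myl3, the ventricular essential light chain, differed from sham at day 26 by 0.04. Myh6, the alpha myosin heavy chain, is not in this list and differed by -0.03. Both lie near the highest value in the files (12.9), at log2 signals of 11.91 to 12.04 for Myl3 and 11.83 to 12.03 for Myh6. The median r of the 12 was -0.13 with Myl7 and -0.25 with Nppb.

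**Figure D4:**
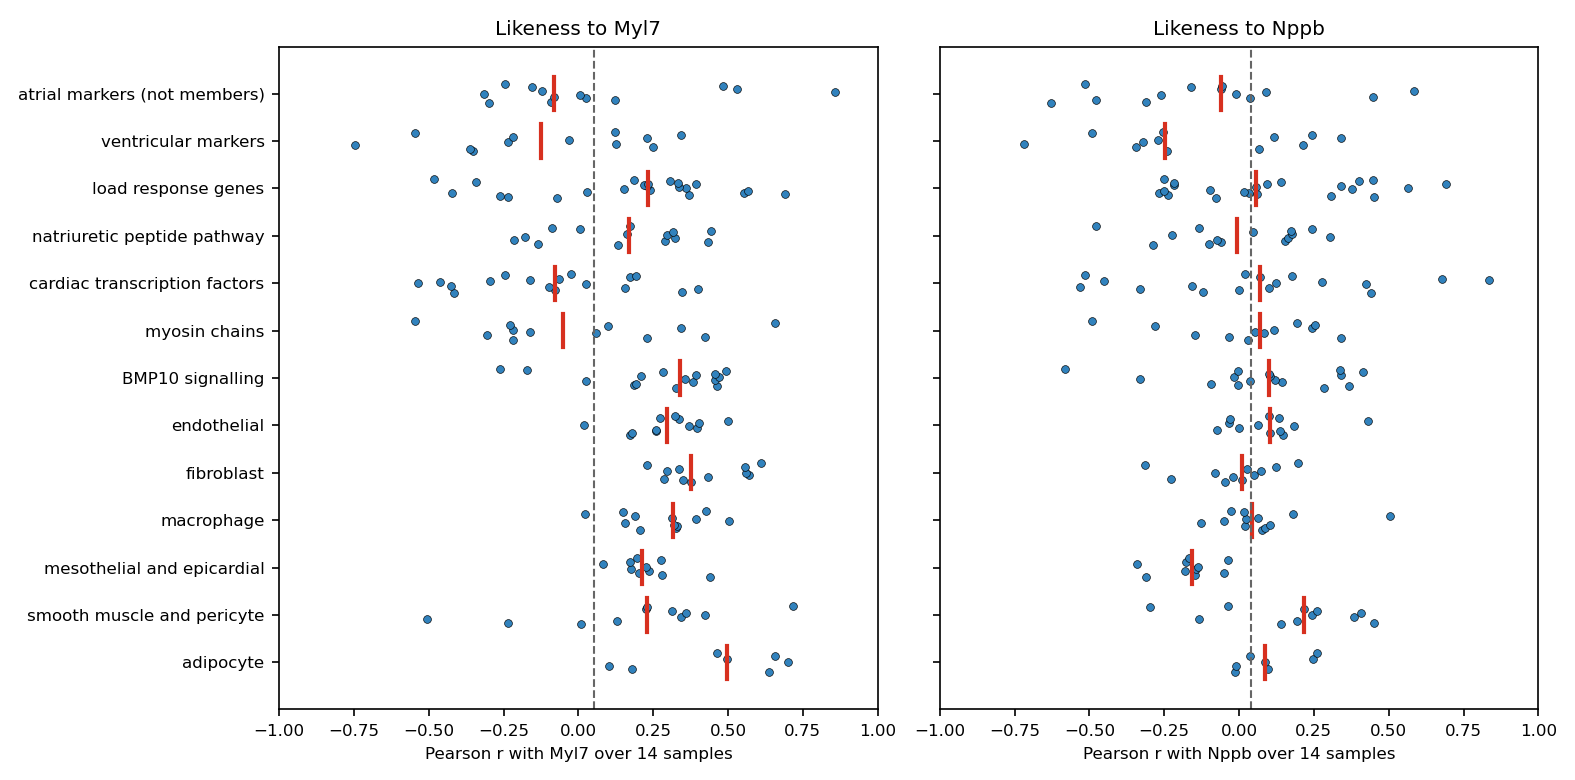
Pearson r over 14 samples (horizontal axes) of the genes of 13 lists (rows) with Myl7 (left) and Nppb (right); points are genes, red bars list medians and dashed lines the median of all genes tested. The atrial list has a median of -0.08 with Myl7 and 1 gene far to the right, Mybphl at 0.86.

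Markers of other cells were measured in the same samples. Of 12 endothelial markers, 12 were above sham on average at day 26, with a median difference of 0.49, and the medians at days 1, 3, 5 and 12 were 0.32, -0.14, 0.09 and 0.40. For 11 fibroblast markers the medians were 0.52, 0.15, 0.45, 0.55 and 0.60 over the 5 days, and for 12 macrophage markers 0.58, -0.11, 0.25, 0.44 and 0.53. The 10 mesothelial and epicardial markers had medians of 0.73, 0.28, 0.69, 0.85 and 0.42, and 7 endocardial markers had 0.83, 0.46, 0.61, 0.70 and 0.57. At day 26 the median was 0.75 for 7 adipocyte markers, 0.41 for 11 smooth muscle and pericyte markers, 0.16 for 8 conduction and pacemaker markers and 0.11 for 2 neuronal and Schwann cell markers. The fit called 0 of these markers at an adjusted p of 0.05. Their median r with Myl7 was 0.30 for endothelial, 0.38 for fibroblast, 0.32 for macrophage, 0.21 for mesothelial and 0.50 for adipocyte markers. The summed linear signal of the endothelial list was 2928 to 3503 at day 1, 1632 to 3837 at day 3, 2367 to 3082 at day 5, 2520 to 4315 at day 12 and 2756 to 3834 at day 26, against 2234 to 2831 in sham cells. For the fibroblast list the sums were 4028 to 4888, 2465 to 5857, 4203 to 4408, 3198 to 6348 and 4025 to 5501 on these days, against 2628 to 3488 in sham cells. Day 1 lay wholly above sham for both lists. The fibroblast sums of days 5 and 26 also lay wholly above sham, while those of days 3 and 12 overlapped it. A link between these sums and the 7 genes was not tested. With markers of endothelial cells, fibroblasts and macrophages averaged per sample as a covariate, the day 26 difference was 1.79 for Myl7, 1.83 for Sln, 1.48 for Myl4, 0.44 for Bmp10, 0.36 for Dkk3, 0.30 for Nppb and -0.10 for Nppa.

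The partners of each gene completed the picture. In the natriuretic peptide pathway 14 of 16 genes were tested and 0 passed. Corin, the protease that activates atrial natriuretic peptide, was 0.16, 0.38, 0.29, 0.15 and 0.11 above sham over the 5 days (adjusted p = 0.266 at day 3, its lowest, and 0.629 at day 26), and Furin, which cleaves the Nppb precursor, differed by -0.01 at day 26. Npr1, the guanylyl cyclase receptor, had differences of 0.49, 0.30, 0.38, 0.91 and 0.50, and Npr3, the clearance receptor, 0.80, 0.37, 0.61, 0.67 and 0.59 (adjusted p = 0.613 and 0.563 at day 26). Of 17 tested transcription regulators that act on Nppa or Nppb, 0 passed. Hand2 had 0.38 at day 3 and Hdac4 0.35 at day 12, the largest differences of that list, and Srf had r = 0.83 with Nppb and -0.30 with Nppa.

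Among 9 genes that act with sarcolipin on the calcium pump, 0 passed, and Atp2a2, the cardiac pump itself, differed from sham by 0.01 to 0.03 on every day. The log2 signals of Atp2a2, 12.26 to 12.34, also lie near the highest value in the files. Among 12 tested genes for myosin chains outside the group, 0 passed. Myl1, an essential light chain of fast skeletal muscle, had differences of -0.71, -0.19, -0.72, -0.80 and -0.68 over the 5 days (adjusted p = 0.153 at day 26), and its r with Myl7 was -0.31. Of 16 tested genes of BMP10 signalling, 0 passed and 14 were above 0 at day 26, with a median of 0.24. Acvrl1 and Eng, the type I receptor and the co-receptor of BMP10 on endothelial cells, were 0.73 ± 0.26 and 0.70 ± 0.40 above sham at day 26 (adjusted p = 0.255 and 0.431). At an unadjusted p under 0.05 at day 26, against 14.3% of all genes, the counts were 3 of 13 for the atrial list, 3 of 12 for the ventricular list, 1 of 14 for the natriuretic pathway, 2 of 17 for the transcription regulators, 1 of 9 for the calcium pump partners, 4 of 12 for the myosin chains, 3 of 16 for BMP10 signalling, 0 of 8 for the DKK and Wnt list and 6 of 22 for the load response. For markers of other cells they were 4 of 7 for adipocyte, 3 of 7 for endocardial, 4 of 11 for fibroblast, 3 of 11 for smooth muscle and pericyte, 2 of 12 for endothelial, 1 of 8 for conduction, 1 of 12 for macrophage, 0 of 10 for mesothelial and 0 of 2 for neuronal markers. Of 8 tested Dickkopf and Wnt genes, 0 passed, and Sfrp1, a secreted Wnt antagonist, had the largest difference, 0.67 at day 12 (adjusted p = 0.634).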

How the data were processed

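Cardiomyocyte RNA of 15 samples was hybridised to Affymetrix arrays. The values deposited are log2 signals of 34760 probe sets; the submitters' processing notes name MAS5, and background correction and normalization are not given in the sources used here. The values were used as deposited. The platform annotation gave 21640 probe sets 1 symbol, 1321 several and 11799 none; per gene, the single-symbol probe set with the highest mean was kept. Positions and promoter windows are RefSeq's (GRCm38.p6).

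The design text names days 1, 3, 7, 14 and 28 and iron ions; the days of the titles were used, and iron is not analysed here. limma 3.58.1 (R 4.3.3; eBayes with a variance trend) was fitted to 14 samples in 6 groups (8 residual degrees of freedom, 12.1 moderated), with p-values adjusted by Benjamini-Hochberg over 12102 genes, or 19937 without the filter for Sln, at 0.05. Correlations used 100000 permutations (scipy 1.17.1). Both procedures were tested on simulated data. Genes were named by a rule: all 7 members, 14 set genes, up to 2 genes of each list with the largest difference, and the 3 most similar genes. The list genes Csrp3, Rcan1 and Xirp2 were chosen after their values were seen. The members, lists and tests were chosen with earlier results of these data known. Alternatives covered normalization, filters, probe sets, variance model, controls, covariates and left-out arrays.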

Additional observations from a re-analysis of the deposited data

How the results depend on the processing

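None of the 7 genes passed an adjusted p of 0.05 in any day contrast or F-test under any alternative run. In the day contrasts the lowest adjusted p was 0.0778, for Myl7 at day 26 when only the groups compared were fitted. In the F-tests it was 0.0771, for Nppa in the test among the proton days. The 15 pairs that passed did so with quantile normalization, with means over probe sets, with 15 arrays and in each run without 1 array, except Nppa and Myl7 without proton day 26 replicate 1 (r = 0.565). Of 930 alternative values of single genes, 884 kept the sign and 46 did not; the cause was not tested. With other cells' markers as a covariate, Nppa was -0.0729 at day 5 and -0.0955 at day 26, Nppb 0.00136, Myl4 -0.272, Myl7 -0.0951, Sln -0.321 and Dkk3 -0.0257 at day 12, and Myl7 -0.476 and Dkk3 -0.163 at day 1. With the 7 atrial markers as a covariate, Nppa was -0.128 at days 5 and 26 and Myl7 -0.0117 at day 1. At day 1, quantile normalization gave Sln 0.0935 and Bmp10 0.00195, equal array medians gave them 0.0527 and 0.0165, and both the sham of day 1 alone and the replicate block gave Myl4 0.0319, Sln 0.180 and Bmp10 0.0791. The replicate block gave Nppa -0.163 at day 5 and changed no call of the 7 genes. Deviations of same-numbered samples had a median r of 0.0014 over 31 pairs, with 9 above 0.1 and values from -0.722 to 0.457. In a group of 2 samples the deviations mirror each other, so these pairs are not independent. They cannot settle if the samples were paired. Leaving out 1 array at a time gave, at day 1, -0.906 to 0.429 for Myl4, -0.362 to 0.434 for Myl7, -0.683 to 0.671 for Sln and -0.335 to 0.250 for Bmp10. At day 12 it gave -1.08 to 0.292 for Nppa, -0.146 to 0.0241 for Nppb, -0.638 to 1.04 for Myl4, -0.322 to 1.05 for Myl7, -0.500 to 0.802 for Sln, -0.630 to 0.0719 for Bmp10 and -0.0667 to 0.565 for Dkk3. For Nppa it gave -0.227 to 0.229 at day 5 and -0.151 to 0.895 at day 26, for Nppb -0.219 to 0.0205 at day 3, and for r of Nppb -0.517 to 0.00449 with Nppa, -0.518 to 0.181 with Bmp10 and -0.466 to 0.0964 with Dkk3. Counts of all genes that passed were 0, 1, 6, 0 and 5 at days 1, 3, 5, 12 and 26, and 3, 98, 17, 1 and 134 with other cells' markers as a covariate; with 15 arrays as separate samples they were 0, 5, 32, 2 and 54, with the replicate block 0, 2, 11, 0 and 5. At day 26 they were 0 with equal array medians or the atrial covariate, 26 with quantile normalization, 12 with no filter, 23 with the stricter filter and 46 with only the groups compared, and 0 to 41 without 1 array. Groups of 2 or 3 arrays and signals near the filter limit what can be seen for Sln, Bmp10 and Dkk3.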
